A study of Ginkgo biloba with 15 samples.

Results

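From the 15 libraries of the series, 6 mRNA libraries of Ginkgo biloba embryos were used to describe what sets the middle month of a 3-month collection off from a straight line between the first and the last. The compared groups were embryos collected in November 2015 (2 libraries) and embryos collected in September 2015 and in February 2016 (2 libraries each). All embryos came from untreated, healthy trees on the grounds of a university, of no stated genotype and, per the labels, at differing developmental stages. Whether a library held 1 embryo or a pool, and whether libraries of a month came from separate trees, is not given in the sources used here. The p-values therefore weigh differences between months only against the spread between libraries of a month, and that spread may be technical. The other 9 libraries were small-RNA libraries of the same months.

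Ginkgo is a gymnosperm whose embryo is still small when the seed is shed in autumn, and it goes on growing inside the seed over the following months. It is fed by the female gametophyte, a haploid tissue that stores starch and protein. Seeds that overwinter pass through dormancy before germination. A gene that changes by the same amount before and after the middle month has a middle value on the line between the first and the last. A gene above or below both other months, or one that makes most of its move in 1 interval, does not.

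The quantity followed was the November mean minus the average of the September and February means, in log2(FPKM + 1), and it is called the November difference here. FPKM is the number of fragments on a gene scaled by its listed length and by the depth of the library. A positive difference means more RNA in November than the line gives. On this scale the change of weakly expressed genes is understated. The 22947 genes with 1 FPKM or more in at least 2 of the 6 libraries were tested with limma, of 43690 listed. A gene was called when its Benjamini-Hochberg adjusted p, over all genes tested, was under 0.05. The libraries were scaled to depths of 14508997 to 19641543 reads. Between 20260 and 21206 genes per library had 1 FPKM or more. The files pair gene identifiers with positions on scaffolds and not with names or products, so embryo markers and pathways could not be looked up. Genes are therefore described by their values, model structure and position. The libraries hold whole tissue, so fewer cells of a type and less RNA per cell cannot be told apart.

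November differed from the line in 4328 genes, 18.9% of those tested. Of these, 2339 were higher in November (10.2% of those tested) and 1989 were lower (8.67%). The median November difference was 1.09 for the higher genes and −0.94 for the lower ones, against −0.01 for all tested genes. Higher genes had a median of 24.1 FPKM in November, against 10.1 in September and 8.98 in February. Lower genes had a median of 4.97 FPKM in November, against 10.99 in September and 15.1 in February. The balance of higher and lower calls depended on the method. Higher genes made up 54.0% of calls with limma and 64.1% with edgeR's quasi-likelihood test on reads recovered from the FPKM values. They made up 49.4% with RLE scaling of the libraries and 48.6% without November 1.

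The calls rest on few libraries. Without September 1 the count of 4328 became 1321, without September 2 it became 951, without February 1 it became 1399 and without February 2 it became 2652. A left-out library leaves its month with 1 library, which is then assumed to vary like the others. Every one of the 4328 genes kept its side of the line in each of these fits and in those without November 1 or November 2. A call already asks for a difference that is large against the spread between libraries. A change of side was therefore unlikely from the outset, and its absence lends the calls no support. Fits without a November library also lose the widest within-month spread, and the genes called there were only partly the same. The November libraries were the least alike. They differed by 2-fold or more in 1827 genes (7.96%), against 539 (2.35%) for the September libraries and 637 (2.78%) for the February libraries. The main fit takes 1 spread for all months, which can understate the error of the November mean. With library weights, which count the November libraries less, 2921 genes were called.

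Large differences were mostly upward. Among called genes, 327 stood at least 4-fold above the line in November and 96 at least 4-fold below it. The excess of upward genes held in all 20 refits with another setting or a library left out. The numbers themselves moved with the constant added before the logarithm, to 590 and 319 with 0.1 FPKM and to 136 and 25 with 5 FPKM. edgeR on recovered reads gave 650 and 203.

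**Figure D1:**
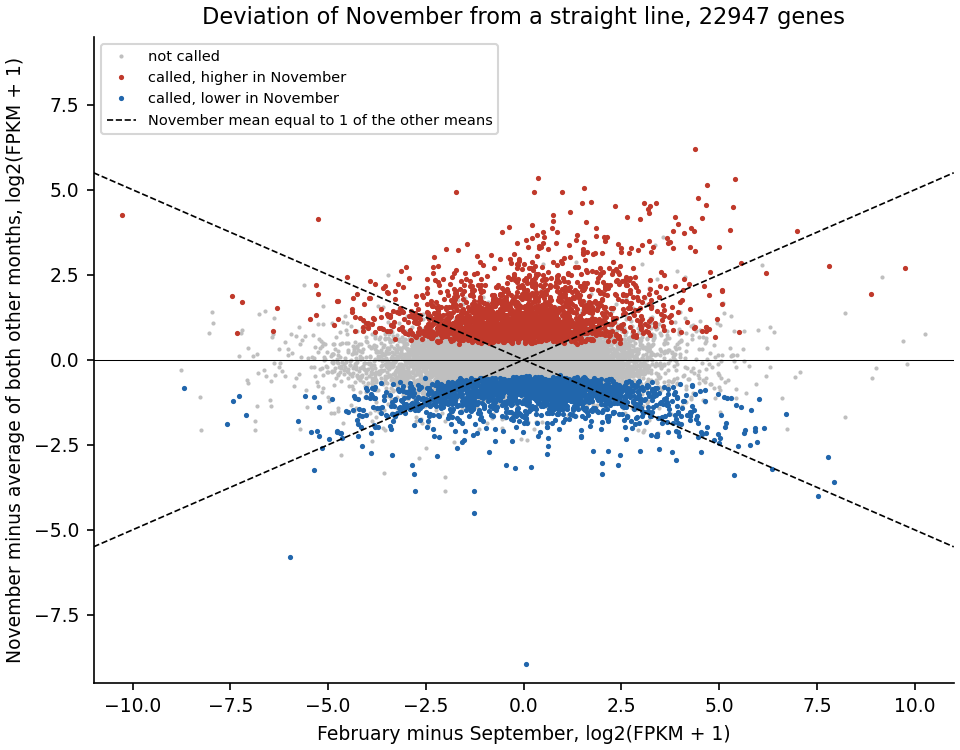
Each point is a tested gene. The horizontal axis is February minus September and the vertical axis the November difference, both in log2(FPKM + 1); red points are the 2339 genes called higher in November, blue points the 1989 called lower and grey points genes not called. Above the upper dashed lines the November mean exceeds both other means and below the lower ones it is under both. Most called genes lie there, and 97 called genes lie above 3 against 18 below −3.

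Most called genes did not lie between the other 2 months. In 2000 of them (46.2%) the November mean was above both other means, and in 1415 (32.7%) it was below both. Among all tested genes these shares were 22.3% and 21.4%. Both November libraries were above all 4 others in 1723 of the higher genes, against 12% of all tested genes. Both were below all 4 others in 1156 of the lower genes, against 9.96% of all tested genes. Calling uses the same values, so these shares describe the calls and lend them no support.

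A stricter reading asked for November to differ from each other month in the same direction, with each comparison called by limma. This was met by 897 genes above both months (3.91% of those tested) and 410 genes below both (1.79%). The 897 stood a median of 1.41 above September and 1.35 above February on the log2 scale. For the 410 the median differences were −1.01 from September and −1.05 from February. February against September was not called by limma in 601 of the 897 (67.0%) and in 303 of the 410 (73.9%), against 39.0% of all tested genes, of which 61% were called. Requiring November beyond both months favours genes with a small change between September and February, so these shares describe the selection. A p that misses the threshold does not show that the 2 months were equal. Where they differed, February was above September in 186 of the 897 and below it in 110, and in the 410 the numbers were 55 and 52. Without September 2 the counts of 897 and 410 became 321 and 64, the lowest with a library left out. With the library number as a block, which removes any difference shared by libraries of a number, they were 742 and 257.

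The remaining called genes lay between the other months, with unequal changes before and after November. The line places November halfway although the later interval was longer, so an even calendar pace also lies off it. Rises from September to February took place mostly before November in 128 called genes and mostly after it in 314. The late risers had a median of 5.15 FPKM in November, against 3.75 in September and 39.2 in February. Falls were mostly before November in 260 genes and mostly after it in 211. The early fallers had a median of 0.557 FPKM in November, against 9.90 in September and 0.139 in February. The late fallers had a median of 36.2 FPKM in November, against 47.4 in September and 5.67 in February.

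The pace can also be given for all genes with a called change of at least 2-fold between September and February, whether or not November was called. In 4470 such genes that rose, a median of 40.6% of the rise on the log2 scale was reached by November (quartiles 18.2% and 67.4%). In 5494 that fell, it was 47.2% of the fall (quartiles 25.5% and 70.2%). In 827 of the 9964 genes November lay past the February level, and in 982 it lay on the far side of the September level. Calendar time was not even, with 2 months before November and 3 after it. Placing the line by calendar, with weights of 0.6 for September and 0.4 for February, called 4127 genes, of which 3608 were among the 4328 in the same direction.

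In whole libraries, the November embryos stood about midway. On the line from the September mean to the February mean over all tested genes, with September at 0 and February at 1, November 1 stood at 0.442 and November 2 at 0.546. Both were far from the line, at a root mean square distance of 0.780 and 0.782 per gene on the log2 scale. September and February libraries were 0.200 to 0.211 from it, which is small by construction because the line runs through their means. The change from September to February was 1.52 on the same measure. November 2 lay nearer to February than November 1 did. Across genes, November 2 minus November 1 correlated with February minus September at 0.237 over 22947 genes, which are not independent replicates. In sums of squares, February minus September held 68.5% of the variation among the 6 libraries, the November difference 20.1% and differences within months 11.4%. Of the last, 6.31% was within November, 2.36% within September and 2.69% within February.

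**Figure D2:**
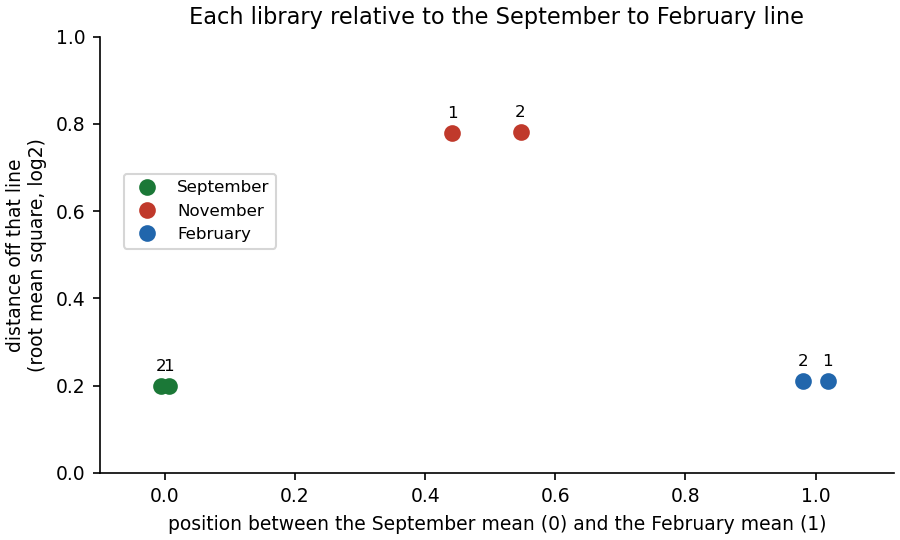
Each point is a library, numbered as in its title. The horizontal axis is its position between the September mean (0) and the February mean (1), and the vertical axis its root mean square distance off that line in log2(FPKM + 1). The November libraries stand at 0.442 and 0.546 and at 0.780 and 0.782 off the line, the others at 0.200 to 0.211.

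The genes that were higher in November took up a large part of the November RNA. The 2268 higher genes with whole recovered reads held 23.0% and 22.1% of reads in November, against 9.19% and 8.70% in September and 8.30% and 11.4% in February. The 872 genes above both months held 7.88% and 8.25% in November, against 2.14% and 1.93% in September and 2.29% and 2.97% in February. The 317 at least 4-fold above the line held 9.37% and 8.22% in November, against 0.901% and 0.592% in September and 1.72% and 3.92% in February. In all 3 classes both November shares were above the other 4. The 1907 lower genes held 3.91% and 3.86% of reads in November, against 7.47% and 7.83% in September and 11.8% and 10.5% in February. Genes were sorted by the same values, so only the sizes of these shares are of interest.

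**Figure D3:**
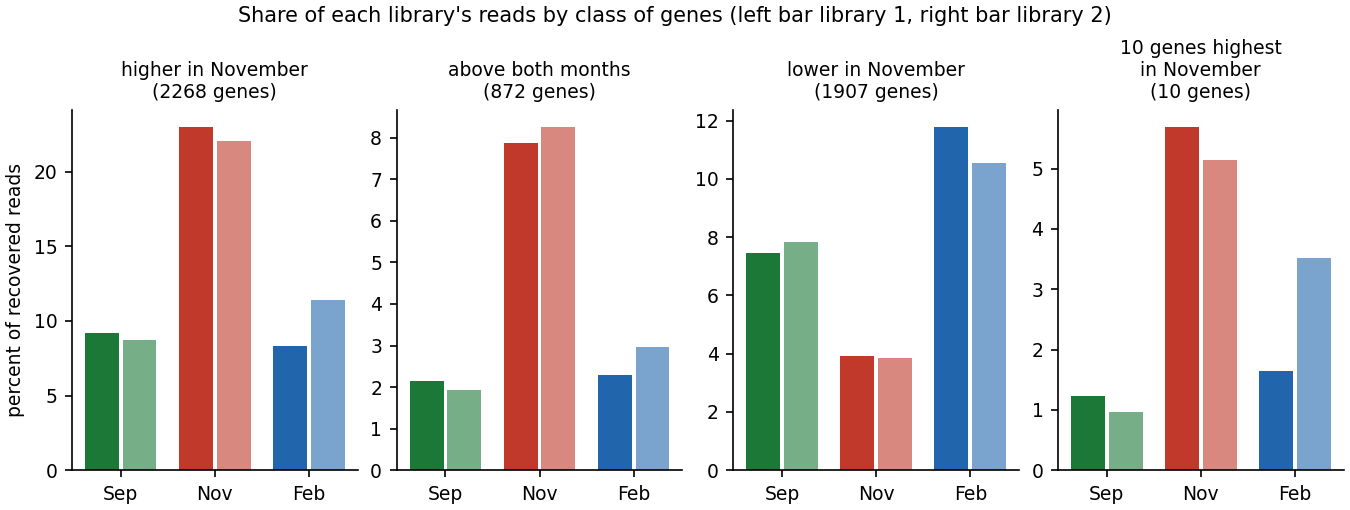
Bars give the percent of recovered reads of each library (left bar library 1, right bar library 2 of the month) held by a class of genes, with a vertical scale of its own in each panel that starts at 0. The 2268 higher genes held 23.0% and 22.1% in November, and the 10 genes with the highest November mean 5.68% and 5.14%.

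The most abundant gene in November was itself far off the line. It is a plus-strand model (scaffold 5718, 2801592 to 2802124) with a short listed length of 195 bases, which raises its FPKM for a given number of reads. Its levels were 43027 and 47147 FPKM in November, against 1483 and 316 in September and 3077 and 12735 in February, and the months did not overlap. The November difference was 4.44 (SE 0.78, limma adjusted p = 0.016). It took 137644 and 180579 reads in November, against 4195 and 1069 in September and 9659 and 41115 in February. Its call was lost without September 2 (adjusted p = 0.076).

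The next was a minus-strand model (scaffold 9952, 171074 to 171784). Its levels were 29255 and 12269.6 FPKM in November, against 171 and 268 in September and 2031 and 12543 in February. November 2 was below February 2, so the months overlapped. The November difference was 4.18 (SE 0.75, limma adjusted p = 0.016), and it was no longer called when either September library was left out (limma adjusted p up to 0.078). November exceeded September by limma (6.46, adjusted p = 0.0040) but not February (1.91, adjusted p = 0.12). The third, a plus-strand model (scaffold 2408, 6134 to 6609), had 10106 and 13223 FPKM in November, against 9748 and 7263 in September and 5296 and 7161 in February. Its November difference of 0.68 (SE 0.38) did not pass the limma test (adjusted p = 0.24). The 10 genes with the highest November means held 5.68% and 5.14% of reads in November, against 1.23% and 0.963% in September and 1.64% and 3.51% in February.

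Gb_16563 had the largest upward difference among genes in which both November libraries were above all others. It is a plus-strand model (scaffold 2528, 6203698 to 6204465), with 1196 and 717 FPKM in November, against 6.62 and 0 in September and 26.7 and 117 in February. The November difference was 6.20 (SE 0.89, limma adjusted p = 0.0095), and it was called in all 20 refits. Gb_29977 (scaffold 5448, minus strand, 56621 to 58272) came next, with low levels in both other months. It had 158 and 80.4 FPKM in November, against 1.18 and 1.79 in September and 1.52 and 3.07 in February. The difference was 5.34 (SE 0.34, limma adjusted p = 0.0028), again called in all 20 refits. A model on the opposite strand inside it was listed at 0 in all libraries, and whether reads were counted by strand is not known.

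The largest downward difference was that of Novel01102, a model added by the authors (scaffold 4, minus strand, 329169 to 331181). It had 12 and 2 reads in November (0.397 and 0.0552 FPKM), against 9799 and 30105 in September and 11893 and 28184 in February. The November difference was −8.95 (SE 0.46, limma adjusted p = 0.0028). Gb_33387 (scaffold 6448, plus strand, 576021 to 576425) was listed at 0 in both November libraries. A count of 0 allows up to 0.452 and 0.377 FPKM there (3 reads per library, counting error only). September had 297 and 662 FPKM, and February 3.53 and 9.99 FPKM. Its difference of −5.81 (SE 0.44, limma adjusted p = 0.0030) depends on the constant added to FPKM. Both genes were called in all 20 refits, and each had November below both other months.

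**Figure D4:**
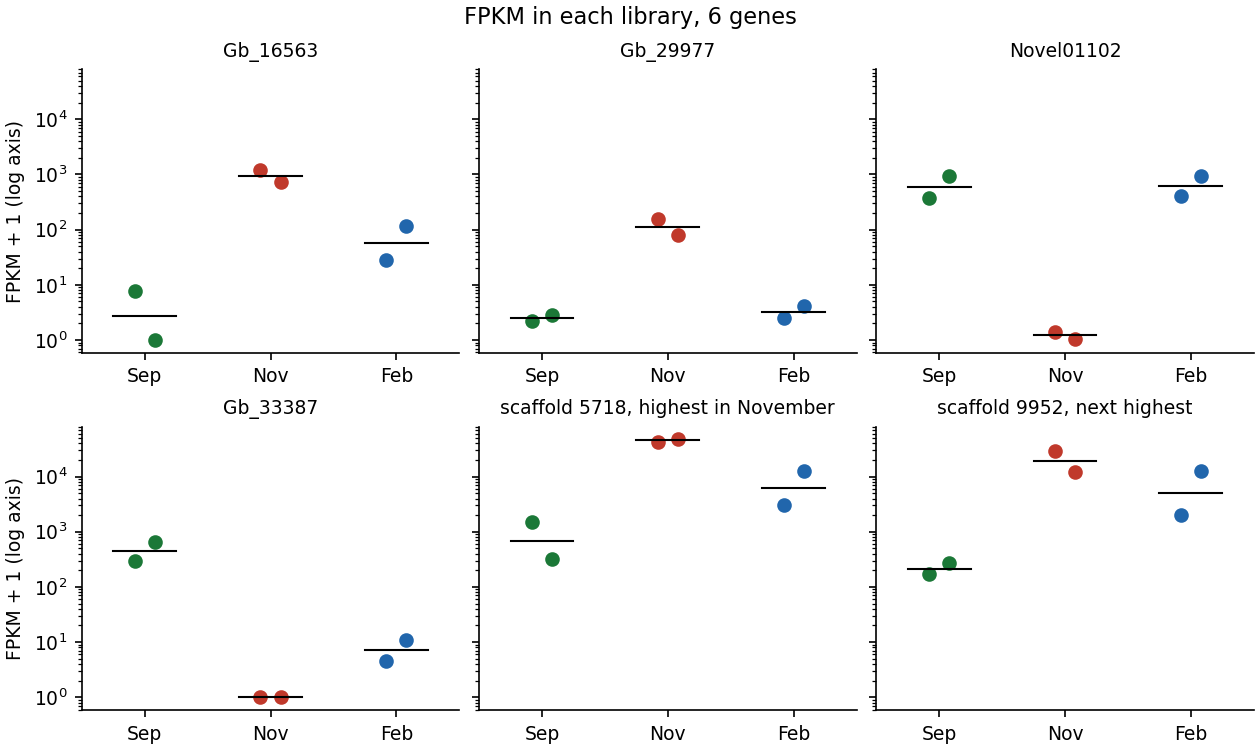
FPKM + 1 on a log axis for each library (points, library 1 left and library 2 right) of the genes with the 2 largest upward and 2 largest downward November differences and the 2 genes with the highest November mean, by month. Black lines are month means of the log values. The November points of Gb_16563 and Gb_29977 lie above all other points, those of Novel01102 and Gb_33387 below, and on scaffold 9952 November overlaps February.

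Few genes were switched fully on or off for the month alone. Means under 1 FPKM in September and February with 10 FPKM or more in November were found in 13 genes, all called. The reverse pattern was found in 4 genes, of which 3 were called. Both patterns are set by the values that calling uses, and genes of the first can pass the filter on low values through November alone. These counts of calls therefore lend no support. Only 3 genes had 0 recovered reads in all 4 September and February libraries and 1 FPKM or more in both November libraries, and their highest November mean was 1.54 FPKM. The reverse, 0 reads in both November libraries and 1 FPKM or more in the other 4, was found in 3 genes, among them Gb_33387. A rule of 0 reads in only 1 other month is easier to meet. With 1 FPKM or more in both November libraries, 94 genes had 0 reads in both September libraries and 25 had 0 reads in both February libraries.

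Genes that were high in November also differed within the other months, in a direction that did not enter the calls, which use month means and the size of the spread. February 2 was above February 1 in 266 of the 327 genes at least 4-fold above the line (81.3%), against 47.5% of all tested genes. September 1 was above September 2 in 223 of them (68.2%), against 45.1% of all tested genes. The median February 2 minus February 1 of the 327 was 0.56 on the log2 scale, and the median September 1 minus September 2 was 0.33, against −0.01 and −0.03 for all tested genes. In all 2339 higher genes the shares were 73.3% and 57.7%. Among the 1989 lower genes, February 2 was above February 1 in 32.4% and September 1 above September 2 in 41.7%. For the 96 lower genes of 4-fold or more these shares were 42.7% and 31.3%. Within November, November 1 was above November 2 in 51.4% of the 327 genes and in 34.4% of the 96, against 57.1% of all tested genes. Library depths were 16556677 for February 2 and 16095615 for February 1, and 14508997 for September 1 and 17359723 for September 2. The part of depth and of other library differences was not tested.

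Gene models differed in how often they were called by structure. Among 3420 tested models that span 100 kb or more on their scaffold, 188 (5.50%) were higher in November and 253 (7.40%) lower, against 10.2% and 8.67% of all tested genes. Only 1 of them was called with a 4-fold or larger difference, of 423 such genes in all. Among 4542 models without an intron, 512 (11.3%) were higher and 363 (7.99%) lower, which is close to the shares of all tested genes. Among 11402 models with an intron and a span under 10 kb, 1335 (11.7%) were higher and 1099 (9.64%) lower. The 5737 longest models, with a listed length of 1853 bases or more, had 6.47% higher and 8.18% lower. The share of higher genes was 7.11% in the 5737 genes with the lowest mean FPKM over the 6 libraries and 13.6% in the 5737 with the highest, and the shares of lower genes were 8.80% and 9.06%. Precision increases with the number of reads, and its part in these shares was not tested. Models added by the authors were called lower more often than higher, with 181 (12.2%) and 151 (10.2%) of 1482, and their median November difference was −0.08.

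Neighbouring genes on a scaffold often shared their call. Where a gene that was higher in November had a tested neighbour on the same strand less than 10 kb away, that neighbour was also higher in 34.0% of 106 cases and lower in 5.66%. Where a lower gene had such a neighbour, it was lower in 43.1% of 116 cases and higher in 5.17%. The shares of like neighbours were 24.7% and 21.7% at 10 to 100 kb and 14.6% and 11.7% at 100 kb or more. On opposite strands less than 10 kb apart they were 10.7% for higher and 34.7% for lower genes. The shares among all tested genes were 10.2% and 8.67%. Whether copies of a gene share reads in these counts is not known, and reads of close models may be assigned to either.

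**Figure D5:**
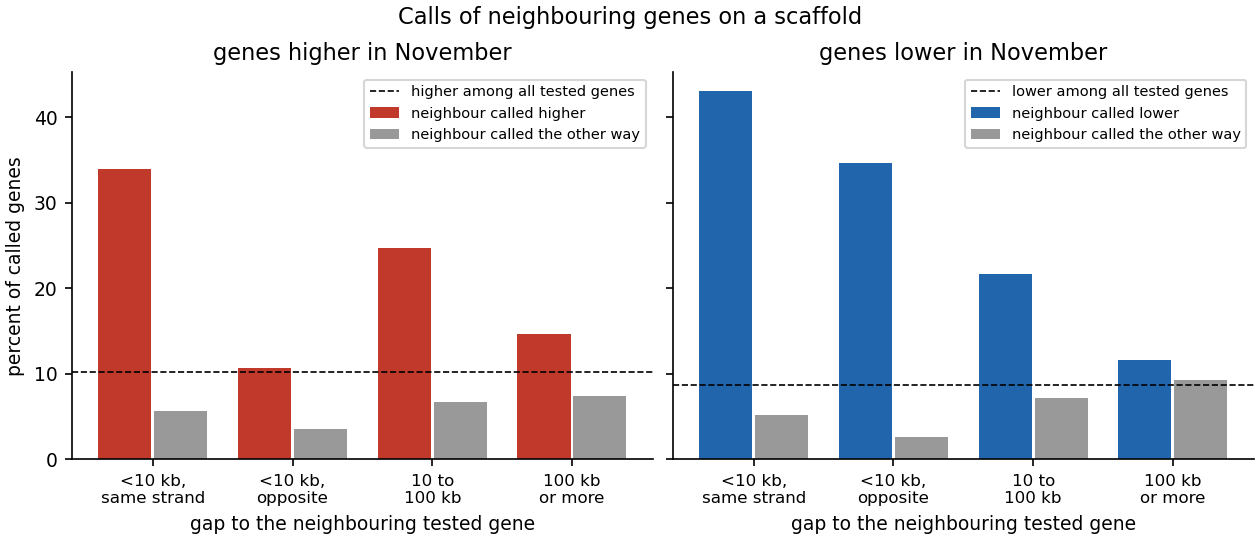
Bars give the percent of neighbours of a called gene that were called the same way (coloured) or the other way (grey), by gap and strand, for genes higher (left) and lower (right) in November. Dashed lines are the shares among all tested genes, 10.2% and 8.67%. On the same strand under 10 kb, 34.0% and 43.1% of neighbours were called the same way.

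Runs of 3 or more tested neighbours called the same way numbered 33 for higher and 28 for lower genes. The 3 longest upward runs held 5 genes each. One lies on scaffold 46590 between 19831 and 661192, where all 5 tested genes of the scaffold were higher. The strongest of these, at 401613, stood at 418 and 310 FPKM in November, against 85.1 and 7.63 in September and 12.1 and 32.7 in February, with a November difference of 3.92. In this run November was above both other months by the 3 tests in 4 genes. All 5 calls were lost with library weights, under which November libraries count less, and without February 1 or November 1. The other upward runs lie on scaffolds 2528 (6203698 to 6375086) and 2833 (792569 to 1521016).

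The run on scaffold 2528 contains Gb_16563 and 3 further models of nearly the same listed length on the same strand (684 to 690 bases, against 687 for Gb_16563). The model at 6338138 stood at 2454 and 1679 FPKM in November, against 90.8 and 7.88 in September and 251 and 700 in February. The model at 6374313 stood at 779 and 613 FPKM in November, against 112 and 29.4 in September and 52.8 and 151 in February. The model at 6355152, by contrast, reached only 6.68 and 10.05 FPKM in November, against 1.41 and 0.168 in September and 1.45 and 4.06 in February. The fifth gene lies on the other strand at 6261408. All 5 were higher, with November differences of 1.92 to 6.20, although November means ran from 8.37 to 2066 FPKM. Without September 2 or February 1, only 2 of the 5 were called.

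There were 7 scaffolds that held 3 or more genes at least 4-fold above the line, 26 of the 327 in all. They were picked with these values in view. On scaffold 8610, 4 neighbouring models with listed lengths of 489, 489, 387 and 489 bases were all above both other months. They start at 1352265, 1930404, 2327025 and 2337604. The first stood at 236 and 106 FPKM in November, against 1.41 and 0.707 in September and 21.3 and 19.1 in February (difference 4.60, limma adjusted p = 0.0030). The last stood at 48.5 and 27.1 FPKM in November, against 1.13 and 0.589 in September and 3.43 and 4.08 in February (difference 3.66). The 4 calls held in each of 13 other settings at the same threshold and with each library left out, where the highest adjusted p was 0.034. The other 3 tested genes of that scaffold were not called.

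On scaffold 310, 3 models of 1431 to 1455 bases stood 3.20 to 3.79 above the line. The one at 1875475 had 246 and 200 FPKM in November, against 16.3 and 0.633 in September and 86.5 and 139 in February, with each February library above September and below November. At the same threshold its call was lost in edgeR, in DESeq2, with a pseudocount of 0.1, with no filter on low values, with library weights and without any 1 of the November or February libraries. On scaffold 9555, 3 models of 984 to 1021 bases within 51.7 kb had November means of 512 to 530 FPKM. The model at 70371 stood at 572 and 452 FPKM in November, against 46.9 and 0.702 in September and 12.9 and 48.1 in February. These 3 calls were all lost with library weights and with no filter on low values, and without any 1 of the November or February libraries. September 1 was far above September 2 in each. On scaffold 1909, the fourth and the seventh most abundant genes of November are neighbours on the minus strand with equal listed lengths of 918 bases. The one at 1985814 stood at 6047 and 5901 FPKM in November, against 455 and 260 in September and 1473 and 3916 in February (difference 2.71, limma adjusted p = 0.013). Without September 2, 1 of the 4 genes of this scaffold counted here was called.

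Downward runs differed in kind. On scaffold 7947, 5 neighbours within 12.9 kb were lower, 3 of them below both other months. The model at 1950414 stood at 0.294 and 0.738 FPKM in November, against 15.1 and 12.4 in September and 12.5 and 10.7 in February (difference −3.18). The added model at 1939356 stood at 1.42 and 1.18 FPKM in November, against 8.55 and 7.06 in September and 11.2 and 10.1 in February (difference −2.14). These 2 were called in every refit at the same threshold that could test them, which for the added model leaves out edgeR and DESeq2. The other 3 had under 8 FPKM in every library, and edgeR on recovered reads called only 1 of the 4 models that it could test.

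On scaffolds 24877 and 7794, both February libraries were above all other libraries in each of the 8 called genes of the runs. On scaffold 24877, 4 plus-strand models of 360 to 435 bases were called. The model at 234864 had 282 and 208 FPKM in November, against 267 and 261 in September and 1061 and 1585 in February (difference −1.27, limma adjusted p = 0.016). November overlapped September there, and with the line placed by calendar only 1 of the 4 calls held, and none without either September library. On scaffold 7794, the model at 961668 had 0.437 and 0.867 FPKM in November, against 1.79 and 2.32 in September and 39.8 and 26.95 in February (difference −2.63). Both November libraries were below both September libraries in 3 of the 4 genes of that run. All 4 were called in each of the 13 other settings, and 2 of them without September 2. The 3 tested genes of scaffold 11487, singled out after their values were seen, were high in February alone. The one at 438665 had 0.256 and 0.214 FPKM in November, against 0.193 and 0.808 in September and 200.6 and 359 in February (difference −4.01).

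The same comparison in the small-RNA libraries of these months gave no call. Of 145 miRNA names that reached 10 counts in 3 or more of the 9 libraries, edgeR's quasi-likelihood test called 0 (0%), and 0 had an unadjusted p under 0.05. DESeq2 also called 0, with 1 at an unadjusted p under 0.05. Fits with the library number as a block gave 0 calls in edgeR and in DESeq2, with 4 and 10 names whose unadjusted p was under 0.05. The smallest adjusted p of the DESeq2 fit with the block was 0.441. Same-numbered small-RNA libraries deviated together (correlations of 0.366 to 0.901). Without the block that shared part counts as spread, so 0 calls do not show that November lay on the line. The totals of these libraries were 90008 to 1269029 counts, and the mRNA and small-RNA results were not tested against each other.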

How the data were processed

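The authors deposited FPKM per gene and library for mRNA and raw counts per miRNA name for small RNA, per the file headers. Tools listed in the submitters' processing notes, with no role, are Bowtie, HTSeq 0.6.1, TopHat2 2.0.12 and CASAVA 1.8. Sources used here give neither a genome build nor an annotation or strand setting, and positions are those of the deposited table.

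The members of the comparison, its lists and its tests were chosen with earlier results of these data known. In R 4.3.3, log2(FPKM + 1) of the 6 libraries was modelled in limma 3.58.1, with its mean-variance trend, 1 coefficient per month and 3 residual degrees of freedom. FPKM times listed length was a whole multiple of 1 step per library within 0.05 of a read for 98.74% to 98.81% of values. Recovered reads were used for read shares and, with 22359 tested genes, in edgeR 4.0.16 (3742 called) and DESeq2 1.42.0 (5074 called). Small-RNA counts were tested with edgeR and TMM factors. Scripts were tested on simulated data.

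Genes named by identifier were the first 2 in each direction by size of the difference among called genes with non-overlapping November libraries and a mean of at least 5 FPKM on the higher side. The 3 genes with the highest November mean and the 3 longest runs in each direction were also fixed by rule. Other genes were chosen after their values were seen. Word lists of gene descriptions, planned for embryo and seed functions, were not applied because the table names no products, so no list was tested. Models without an intron are those whose span equals the listed length.

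Same-numbered small-RNA libraries deviated together, with correlations of 0.366 to 0.901 in 9 pairs, a pairing taken from these values and not from a label. Alternatives were other pseudocounts, filters, scaling factors, tools, weights, thresholds and lines, the replicate block and each library left out. Those for small RNA were chosen after seeing the data.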

Additional observations from a re-analysis of the deposited data

How the results depend on the processing

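None of the 4328 called genes was called in the opposite direction in any of 20 refits, and in 17 of them every called gene that could be fitted stayed on its side of the line. In 14 of the 20 refits the same 6 libraries were used, so a call in the opposite direction was unlikely from the outset. It was also unlikely in the 6 left-out fits, because called genes were picked for differences that are large against the spread between libraries. Counts stayed within 1.5 times of 4328 in the settings other than a left-out library and the stricter threshold, at 2921 to 5074. The lowest, 2921, came from library weights, the setting that allows for the wider spread of the November libraries. The weights were 0.660 for each November library, 1.46 for September and 1.04 for February. At an adjusted p of 0.01 limma called 761 genes (505 higher, 256 lower), with 259 above and 45 below both months. With library weights 1238 genes were lower. The number in the titles does not pair mRNA libraries by any label. Within-month differences correlated at −0.0858 between September and November, 0.0979 between November and February and −0.175 between September and February, and the replicate block called 3154 genes and 257 below both months, against 410. With a library left out the counts were 951 to 3747 called, 610 to 2136 higher, 341 to 1925 lower, 321 to 832 above both months and 64 to 493 below both. The cause was not tested. With the line drawn in FPKM rather than log2 units, 4289 of the 4328 genes stayed on the same side. No new test was run for this. An average taken in FPKM is never below that of the log values, so lower genes could hardly move, and all 1989 stayed. Of the 2339 higher genes, 2300 stayed. The calls of 50 called genes on the described scaffolds or among the most abundant were lost in 117 of the 300 cases where 1 library was dropped, and in 108 of 695 under another setting. The small-RNA count stayed at 0 in 14 alternatives. Depth limits genes at 0, such as Gb_33387 in November, where 3 reads stand for 0.452 and 0.377 FPKM.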
